A study of Mus musculus with 6 samples.

Results

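The set described here consists of 38 mouse chemokine and chemokine receptor genes, taken by symbol. A gene was counted as measured if a probe set was annotated to its symbol alone, and was read from its brightest probe set (highest mean of the 6 arrays). This gave 37 measured genes of the 38, among 18193 genes measured in all: 5 homeostatic, 14 inflammatory, 5 dual-function and 3 other ligands, and 10 receptors. The missing member was Ccl19, a homeostatic chemokine, whose probe set carries 10 symbols.

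Chemokines are small secreted proteins that direct the migration of leukocytes, and each acts through G-protein-coupled receptors carried by the cells it attracts. Homeostatic chemokines are made constantly and place cells within resting tissues and lymphoid organs, whereas inflammatory chemokines are induced by cytokines and microbial products and recruit neutrophils, monocytes, eosinophils or effector lymphocytes. In the mammary gland chemokines are known for bringing macrophages and eosinophils to growing ducts and for guiding antibody-secreting cells into the tissue around lactation.

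Messenger RNA of whole mammary glands was read on single-channel oligonucleotide arrays, 1 per gland. The wild-type group (WT) held 3 glands and the knockout group (Cav-3KO, here KO, lacking caveolin-3, the caveola coat protein of muscle) held 3 glands, all from virgin females of the FVB/N background at 4 months of age. The labels describe no treatment, and they do not say whether each gland came from a different animal, so the p-values measure the spread between these arrays, which may be technical in part. Values are RMA values on a log2 scale, where a difference of 1 is a doubling. The genotypes were compared by limma across all probe sets, with Benjamini-Hochberg adjustment and a threshold of 0.05, and every adjusted p comes from that fit or, where an array is left out, from the same fit without it. All differences are knockout minus wild type, with ± giving the standard error (SE) from limma.

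Arrays of the same genotype correlated at 0.990 to 0.995 over all probe sets, and arrays of different genotypes at 0.977 to 0.987. Cav3 was 4.85 ± 0.15 in WT (SD, n = 3) and 4.77 ± 0.06 in KO (adjusted p = 0.679), so its probe set did not check the genotypes. Epithelial and adipocyte markers were present in each gland, and luminal markers were higher in knockout (9 of 9 measured, list means of 9.25 to 9.78 in WT and 10.82 to 10.91 in KO), while 6 of 8 white adipocyte markers were lower (11.50 to 11.76 and 10.73 to 11.10). Skeletal muscle list means varied widely between arrays, at 8.27, 9.28 and 5.90 in WT 1 to 3 and 5.34, 6.76 and 7.34 in KO 1 to 3. Of 5 brown adipocyte markers 2 were lower, with list means of 7.92 to 9.49 in WT and 6.66 to 6.78 in KO. In whole tissue, fewer cells of a type and less RNA per cell cannot be told apart. The 15 Y-linked probe sets of these female glands, which stand for background, had means of 2.04 to 6.16 with a median of 2.85. Of these sets 12 had means under 4, at most 3.25, so few sets fix the upper end of this background range. A value within the range is therefore not shown to be undetected. The means of 13 members lay at or below the highest of the 15 set means, and those of Cxcl5 and Ccr3 below their median. Besides these 2 genes they were Ccl2, Ccl3, Ccl7, Ccl12, Ccl20, Ccl25, Ccl28, Cxcl2, Cxcl11, Ccr9 and Cxcr6.

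Of the 37 measured members 6 passed the threshold, 5 of them lower and 1 higher in knockout. Among all 18193 genes 16.2% passed, 8.51% lower and 7.65% higher, so the members' overall share of 16.2% equals the background, and nothing about the set as a whole follows from it. The 5 that fell were Cxcl13 and Cxcl12, which place B cells and stem or plasma cells, Ccl24 and Ccl11, the eotaxins that attract eosinophils, and Ccl22, which attracts regulatory and type 2 helper T cells. The 1 called higher was Cxcl2, a neutrophil chemoattractant, whose arrays all lay within the background range. The 3 knockout arrays lay wholly below the 3 wild-type arrays for 11 members and wholly above for 4, where 19.8% and 18.5% of all genes do so. Differences were small: 26 of the 37 members differed by less than 0.5 on the log2 scale, and the median over the members was −0.11 against −0.0091 over all genes. Leaving out 1 array changed the counts. The lower members numbered 2, 3 and 3 without WT 1, 2 or 3, and 4, 7 and 2 without KO 1, 2 or 3. In the same refits 5.33%, 5.23% and 4.45%, and 6.89%, 8.04% and 3.33% of all genes were lower. Higher members numbered 0 without WT 1, 2 or 3 or KO 3, against 2 and 3 without KO 1 or 2, where 6.77% and 9.44% of all genes were higher.

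**Figure D1:**
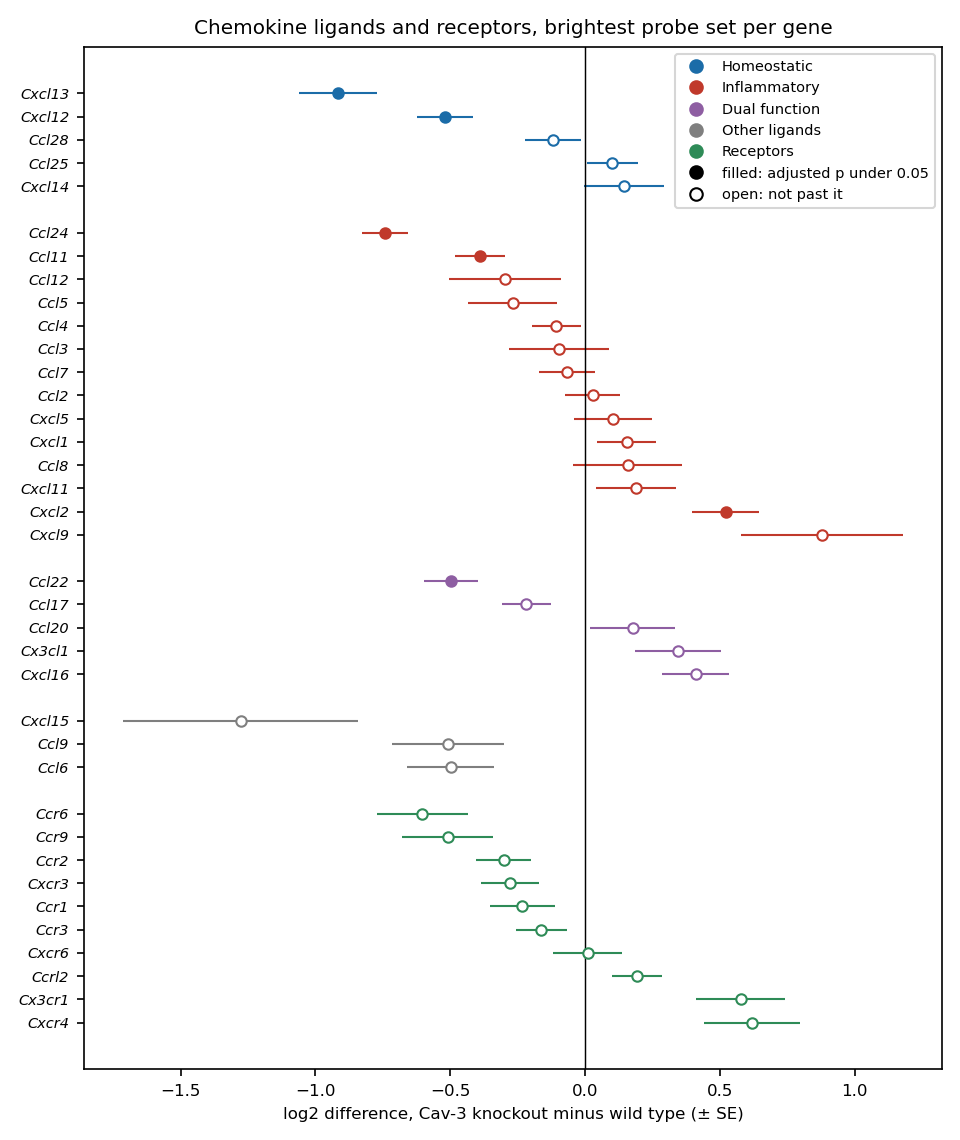
Log2 difference between knockout and wild type (x axis, bars ± SE, n = 3 per group) for each of the 37 measured genes, grouped by class on the y axis. Filled points passed the adjusted threshold: 5 lie to the left of 0 and 1 (Cxcl2) to the right.

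Upstream sequences are printed for Cxcl13, the homeostatic ligand with the largest called difference, for Cxcl2, the only member called higher, and for its neighbour Cxcl1, which was higher on its dimmer probe sets. They are the 250 bases before the annotated start, 5′ to 3′ on the plus strand, from RefSeq on the GRCm38.p6 build, at chr5:90890995-90891244 (Cxcl1), chr5:90903649-90903898 (Cxcl2) and chr5:95956689-95956938 (Cxcl13). Capitals mark matches to the consensus site of NF-kB, the transcription factor that induces many inflammatory chemokines.
Cxcl1: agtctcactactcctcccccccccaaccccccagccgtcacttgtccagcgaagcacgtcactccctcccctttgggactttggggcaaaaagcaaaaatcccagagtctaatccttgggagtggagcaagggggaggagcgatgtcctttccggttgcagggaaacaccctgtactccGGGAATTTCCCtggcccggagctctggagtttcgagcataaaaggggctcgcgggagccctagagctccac
Cxcl2: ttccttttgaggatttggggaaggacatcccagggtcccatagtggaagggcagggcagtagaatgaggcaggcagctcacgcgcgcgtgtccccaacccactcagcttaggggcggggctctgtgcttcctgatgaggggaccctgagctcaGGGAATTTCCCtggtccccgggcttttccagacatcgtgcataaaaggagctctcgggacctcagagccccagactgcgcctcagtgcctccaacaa
Cxcl13: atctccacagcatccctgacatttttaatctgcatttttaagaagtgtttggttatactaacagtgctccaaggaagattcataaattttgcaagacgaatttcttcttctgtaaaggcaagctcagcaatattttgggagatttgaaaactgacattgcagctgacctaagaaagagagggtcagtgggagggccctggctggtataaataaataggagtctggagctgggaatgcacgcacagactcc

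The capitals run from 71 to 61 bases before the start in Cxcl1 and from 97 to 87 bases before it in Cxcl2, where 2 overlapping matches lie on opposite strands. The Cxcl13 window held no match, which says only that these letters are not in it. With both strands searched, 7 of 29 members held the consensus in any of their windows (Ccl9, Ccl20, Ccr3, Ccr6, Ccrl2, Cxcl1 and Cxcl2). Of all 32851 windows 3.90% held it. The first count is by gene, over 33 windows, and the second by window, so the shares are not directly comparable. The motif was chosen after the values were seen, and a match is a sequence feature and no measure of binding.

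Among the homeostatic chemokines 2 of 5 measured genes fell and 0 rose by limma (0 also at an unadjusted p under 0.05), with a median difference of −0.12. Of all genes 8.51% were lower and 7.65% higher. Cxcl13 draws B cells into follicles. Its values were 9.90, 10.17 and 9.76 in WT 1 to 3 and 8.96, 9.27 and 8.85 in KO 1 to 3. The groups did not overlap. Cxcl13 fell by 0.92 ± 0.15 (SE), a level 1.89-fold lower (adjusted p = 0.00866), and its second probe set fell by 0.93 ± 0.11 (adjusted p = 0.00357). The call held when any 1 of the 6 arrays was left out, at adjusted p of 0.00579 to 0.0387.

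Beside Cxcl13, markers of the cells it attracts were lower too. All 7 measured B cell markers fell, with list means of 7.89 to 8.19 in WT and 7.16 to 7.46 in KO, and the smallest p-values belonged to Ms4a1, a B cell surface antigen (fell by 0.88 ± 0.11), and Cd22, an inhibitory receptor (fell by 0.91 ± 0.12). Cxcr5, the receptor for Cxcl13 on B cells and not a member of the set, read 7.86, 7.76 and 8.12 in WT and 7.41, 7.07 and 7.14 in KO, and fell by 0.70 ± 0.13 (adjusted p = 0.0150). Cr2 and Fcer2a, carried by follicular B cells and follicular dendritic cells, were also lower: Cr2 fell by 0.98 ± 0.15 and Fcer2a fell by 0.996 ± 0.13, while Madcam1, an adhesion molecule of mucosal venules from the same list, rose by 1.57 ± 0.23. The part of B cell number in the Cxcl13 result was not tested.

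Cxcl12, made by stromal cells, holds stem cells, plasma cells and other leukocytes in their niches. It read 11.26, 11.34 and 11.06 in WT 1 to 3 and 10.67, 10.80 and 10.62 in KO 1 to 3, again with no overlap. Cxcl12 fell by 0.52 ± 0.10 (1.43-fold, adjusted p = 0.0189) on its brightest probe set and by 0.85 ± 0.10 (adjusted p = 0.00306) on the next, while the third, dimmer set gave −0.39 ± 0.12 (adjusted p = 0.0762). On the brightest set the call was lost without WT 1, WT 2 or KO 3 (adjusted p = 0.0645, 0.0625 and 0.0727). The fibroblast list, whose cells make Cxcl12, had overlapping means of 11.30 to 11.59 in WT and 11.20 to 11.70 in KO. Of its 9 markers 1 was lower (3 lower and 1 higher at an unadjusted p under 0.05). Its differences were of both signs, 5 positive and 4 negative, so an overlapping mean does not show that these cells were unchanged. Cxcl12 lies on chromosome 6, as Cav3 does, with 68 protein-coding genes between them in RefSeq. Of the 55 of these that were measured, 4 were higher and 7 lower, and the part of this neighbourhood in the Cxcl12 result was not tested.

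The other homeostatic ligands did not pass. Cxcl14, made by epithelium and stroma, differed by 0.14 ± 0.15 and its other probe set by −0.18 ± 0.19. Ccl25, the thymic and gut chemokine, differed by 0.10 ± 0.09. Ccl28 is the mucosal chemokine that draws IgA-producing plasma cells into the lactating gland. Its brightest probe set differed by −0.12 ± 0.10, with a 95% interval of −0.36 to 0.12. On a dimmer set of Ccl28, KO 2 read 6.80 while the other arrays read 4.55 to 5.13, so 1 array carried that set's difference of 0.36 ± 0.51.

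**Figure D2:**
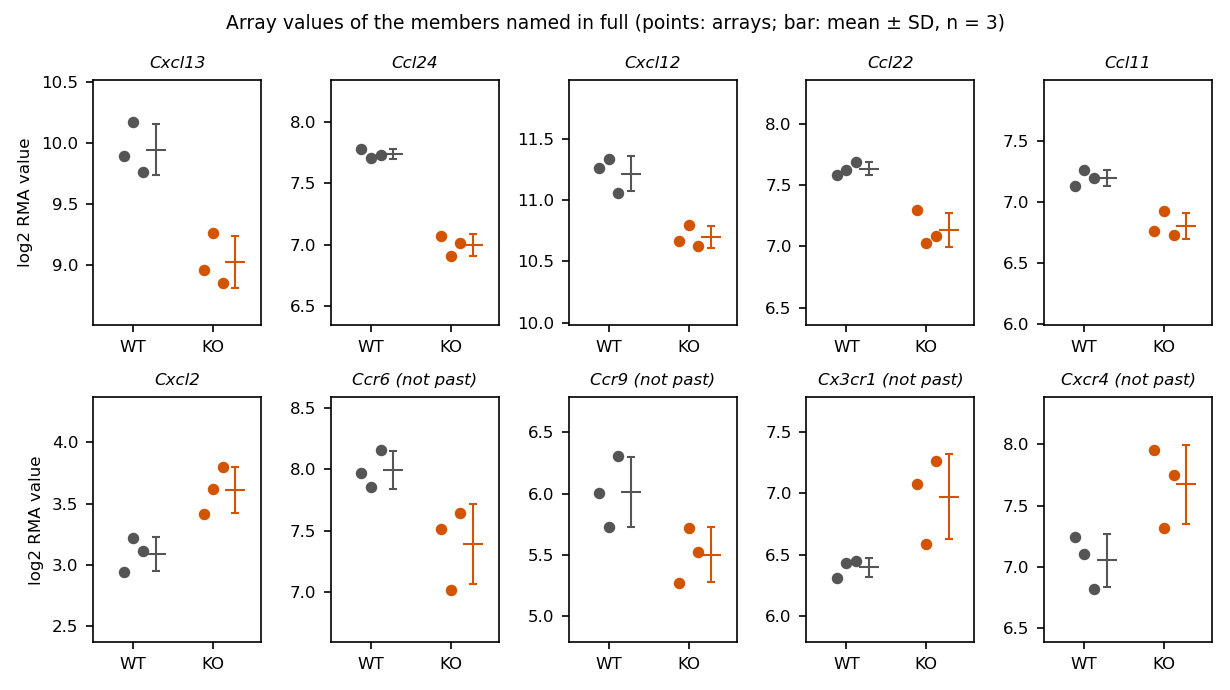
Log2 RMA values of 10 members on each array (points), with the group mean and SD (n = 3); each panel spans 2 log2 units on the y axis. The groups are separate in every panel, and the 4 genes marked "not past" missed the adjusted threshold.

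Of the 14 inflammatory chemokines 2 fell and 1 rose, where 8.51% and 7.65% of all genes did. Positive and negative differences numbered 7 each, and the median was −0.02. The homeostatic and inflammatory medians of −0.12 and −0.02 stand beside −0.0091 for all genes, and the difference between the classes was not tested. With each gene's probe sets averaged, the medians were −0.0194 and −0.0193. With the dual-function chemokines counted in each class, they were −0.0086 and 0.03. Per-array means of the inflammatory list were 6.06 to 6.23 in WT and 6.02 to 6.21 in KO and overlapped. Those of the homeostatic list were 8.12 to 8.17 and 7.77 to 8.07 and did not. In that list 2 genes, the called Cxcl13 and Cxcl12, had separate groups and the other 3 overlapped. No list mean was taken without these 2, so the separation is no result about the class.

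Both eotaxins fell. Ccl24, which macrophages secrete, read 7.78, 7.71 and 7.73 in WT 1 to 3 and 7.08, 6.90 and 7.02 in KO 1 to 3. The arrays of each group lay close together and far from the other group. Ccl24 fell by 0.74 ± 0.09 (1.67-fold, adjusted p = 0.00314), a call that held without any 1 array (0.00577 to 0.0168). Ccl11, made by fibroblasts and endothelium among others, read 7.13, 7.26 and 7.19 in WT and 6.76, 6.92 and 6.73 in KO. It fell by 0.39 ± 0.09 (1.31-fold, adjusted p = 0.0332), and this call was lost without each of 5 arrays. The adjusted p was 0.0695, 0.103 and 0.0972 without WT 1, 2 or 3, and 0.0816 and 0.112 without KO 1 or 3. In the endothelium list 2 of 9 markers were lower and 0 higher, where 8.51% and 7.65% of all genes were. Its means were 8.44 to 8.58 in WT and 8.23 to 8.43 in KO, and 8 of the 9 differences were negative. Ccr3, the eotaxin receptor of eosinophils, read 2.79, 2.94 and 2.72 in WT and 2.73, 2.61 and 2.62 in KO (difference −0.16 ± 0.09, adjusted p = 0.322), near the background level. The eosinophil list, of 4 genes, had 0 members past the limma threshold and 1 lower at an unadjusted p under 0.05. Its list means were 3.46 to 3.58 in WT and 3.35 to 3.52 in KO. All 4 genes read within the background range, so the lack of a call does not show that eosinophils were unchanged.

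The dual-function chemokines Ccl22 and Ccl17 share the receptor Ccr4 and come largely from dendritic cells and macrophages. Ccl22 read 7.58, 7.62 and 7.69 in WT and 7.29, 7.02 and 7.09 in KO, without overlap. It fell by 0.50 ± 0.10 (1.41-fold, adjusted p = 0.0185), and the call was lost without WT 1, 2 or 3 (adjusted p = 0.0501, 0.0544 and 0.0690) and without KO 3 (0.0699). Ccl17 read 6.63, 6.78 and 6.77 in WT and 6.46, 6.59 and 6.48 in KO. Its groups did not overlap either, but the difference of −0.22 ± 0.09 did not pass (adjusted p = 0.161). Ccr4 read 3.78, 3.44 and 3.53 in WT and 3.88, 3.20 and 3.55 in KO, with overlap (−0.04 ± 0.18, adjusted p = 0.929). All of these values lay within the background range. Of 5 dendritic cell markers 0 passed (1 higher at an unadjusted p under 0.05), with overlapping list means of 7.08 to 7.19 and 7.04 to 7.14. Of 14 macrophage markers 1 was higher (Msr1, a scavenger receptor) and 1 lower (Mrc1, the mannose receptor), while 11 of the 14 differences were negative (4 lower and 1 higher at an unadjusted p under 0.05), with means of 8.54 to 8.86 in WT and 8.53 to 8.56 in KO.

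The ligands of the neutrophil receptor Cxcr2 were measured at differing quality. Cxcl2 read 2.94, 3.22 and 3.12 in WT and 3.42, 3.62 and 3.80 in KO, all within the background range. The difference was 0.52 ± 0.12 (adjusted p = 0.0337), to be read with its level in mind, and the call was lost without WT 1, 2 or 3 (0.105, 0.0553 and 0.0923) and without KO 2 or 3 (0.0593 and 0.108). Cxcl1 depended on the probe set. Its brightest set, whose identifier ends in _x_at and which can match other transcripts, read 7.94, 7.76 and 8.12 in WT and 8.13, 8.10 and 8.04 in KO (0.15 ± 0.11, adjusted p = 0.416). Both other sets were higher, by 0.78 ± 0.17 (an _s_at set, adjusted p = 0.0250) and 0.67 ± 0.14 (adjusted p = 0.0232). On the latter the values were 5.02, 5.24 and 5.14 in WT and 5.87, 6.03 and 5.51 in KO, without overlap but within the background range. Cxcl5, made by epithelium, differed by 0.10 ± 0.15 at background level.

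Neutrophil markers were set beside these ligands. All 7 measured genes of the neutrophil list had a negative difference, 3 of them past the threshold. The list means were 5.66 to 5.85 in WT and 4.75 to 5.31 in KO. They lay within the background range, so these calls too are to be read with their level in mind. S100a9, a calcium-binding protein of neutrophils, fell by 1.69 ± 0.17, to KO values within the background range. The part of neutrophil number in the Cxcl2 result was not tested. Cxcr2 itself read 5.73, 5.57 and 5.34 in WT and 5.26, 5.27 and 5.10 in KO, without overlap (−0.33 ± 0.12, adjusted p = 0.112). These values too lay within the background range. Among 11 measured inducers of chemokines 2 were higher and 0 lower (2 lower at an unadjusted p under 0.05). Of all genes 7.65% were higher and 8.51% lower. Relb, a subunit of NF-kB, read 8.45, 8.04 and 8.69 in WT and 9.43, 8.88 and 9.59 in KO and rose by 0.91 ± 0.22 (adjusted p = 0.0351). Nfkbia, the inhibitor that NF-kB itself induces, rose by 0.42 ± 0.10 (adjusted p = 0.0385). The next smallest p-values went the other way, without passing. Lta differed by −0.36 ± 0.10 (adjusted p = 0.0503), within the background range, and Ltb by −0.51 ± 0.14 (adjusted p = 0.0515). Rela differed by 0.12 ± 0.12 (adjusted p = 0.586).

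Cxcl9 and Cxcl11 are induced by interferon-gamma and attract activated T cells through Cxcr3. Cxcl9 had the largest positive difference of the set, 0.88 ± 0.30, but did not pass (adjusted p = 0.1). It read 8.50, 8.11 and 8.97 in WT and 8.79, 9.87 and 9.56 in KO, so KO 1 lay within the wild-type range. Without KO 1, picked because it stood apart, the difference was 1.19 (adjusted p = 0.0309). Cxcl9 passed in only this 1 of the 6 fits with an array left out, and the adjusted p reached 0.258. Its dimmer probe set, within the background range, gave 0.51 ± 0.17 (adjusted p = 0.0987), with overlap. Cxcl11 differed by 0.19 ± 0.15, and Cxcl10, the third ligand of Cxcr3 and outside the set, by 0.56 ± 0.16 (adjusted p = 0.0554). Cxcr3 itself was 7.39 ± 0.14 in WT (SD, n = 3) and 7.11 ± 0.11 in KO, with no overlap and a difference of −0.28 ± 0.11 (adjusted p = 0.141). Of 9 measured T cell markers 6 fell, such as Cd5, by 0.77 ± 0.14, with list means of 7.32 to 7.70 in WT and 6.87 to 6.99 in KO.

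The monocyte and macrophage chemokines showed no call. Ccl2, Ccl7 and Ccl12, ligands of Ccr2, differed by 0.03 ± 0.10, −0.07 ± 0.10 and −0.30 ± 0.21, and Ccl8 by 0.16 ± 0.20. The 95% interval for Ccl2 ran from −0.21 to 0.27. Ccl3, Ccl4 and Ccl5, which attract monocytes and T cells, differed by −0.10 ± 0.19, −0.11 ± 0.09 and −0.27 ± 0.17. The means of Ccl2, Ccl7, Ccl12 and Ccl3 were 5.38, 4.24, 4.81 and 3.49, within the background range. For these genes the lack of a call, and the interval for Ccl2, do not show that the transcript was unchanged.

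Ccl6 and Ccl9, ligands of Ccr1 found in rodents, had their highest knockout value in KO 2, which for Ccl9 lay within the wild-type range. Ccl9 read 9.86, 9.68 and 9.51 in WT and 8.97, 9.68 and 8.89 in KO, and Ccl6 11.23, 11.02 and 11.01 in WT and 10.51, 10.94 and 10.31 in KO. Neither passed (differences of −0.51 ± 0.21 and −0.50 ± 0.16, adjusted p = 0.160 and 0.0851). Without KO 2, picked because it stood apart, the differences were −0.76 (adjusted p = 0.0111) and −0.67 (adjusted p = 0.0133). Each passed in only this 1 of the 6 fits with an array left out. In those fits the adjusted p reached 0.400 for Ccl9 and 0.232 for Ccl6. Ccl9's dimmer probe set, which read within the background range, was lower with all arrays, by 0.48 ± 0.12 (adjusted p = 0.0359). The neutrophil list mean was also highest in KO 2 among the knockout arrays, at 5.31 against 4.75 and 4.82 in KO 1 and 3. These means lay within the background range, and S100a8 weighed heavily in them, at 4.70, 7.13 and 5.27 in KO 1 to 3.

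Cxcl15, known as lungkine and found in mouse epithelia, varied most. It read 8.94, 7.16 and 8.59 in WT and 7.43, 6.53 and 6.90 in KO, so WT 2 lay within the knockout range. Its difference of −1.28 ± 0.44, the most negative of the set, did not pass (adjusted p = 0.101). Without WT 2, picked because it stood apart, it was −1.81 (adjusted p = 0.0142). Cxcl15 passed in only this 1 of the 6 fits with an array left out, and the adjusted p reached 0.261. These values are from its brightest probe set. On its other set the groups did not overlap, and the difference of −0.96 ± 0.28 did not pass either (adjusted p = 0.0650).

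**Figure D3:**
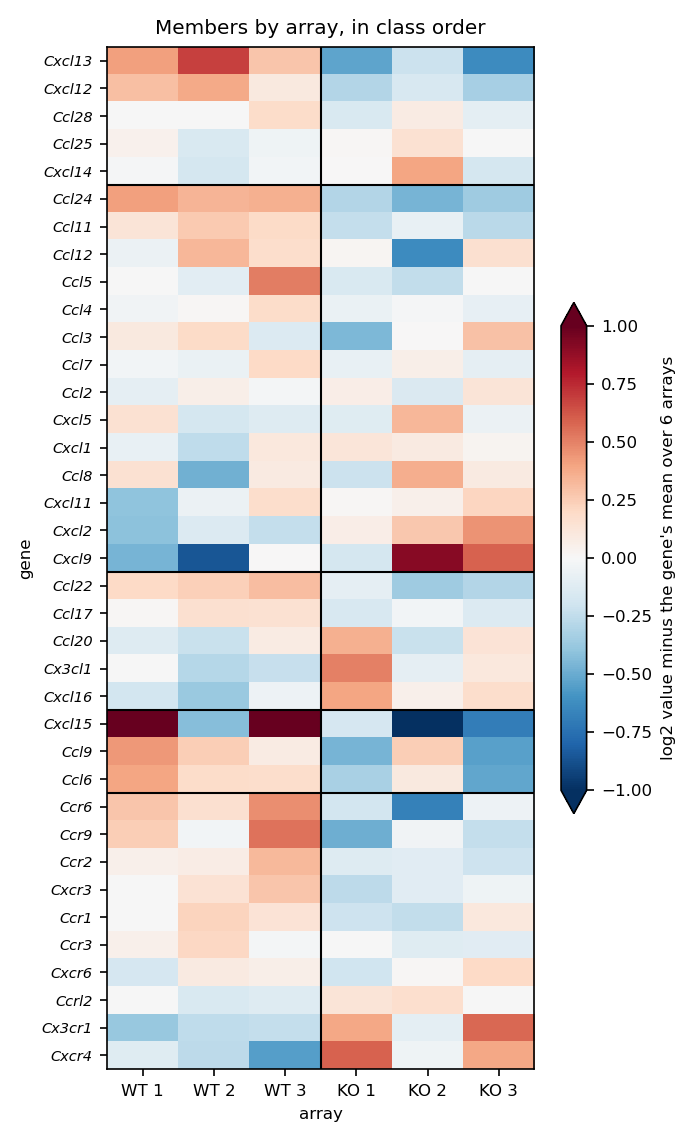
Each row is a gene and each column an array; colour gives the log2 value minus that gene's mean over the 6 arrays, clipped at −1 and 1, with classes separated by lines. Cxcl13, Cxcl12, Ccl24 and Ccl22 are red in all wild-type and blue in all knockout arrays, whereas Ccl6 and Ccl9 in KO 2 resemble wild type.

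The membrane-anchored chemokines Cxcl16 and Cx3cl1 are shed from epithelium and endothelium. Cxcl16 read 8.25, 8.06 and 8.38 in WT and 8.83, 8.48 and 8.61 in KO on its brightest set, without overlap, a difference of 0.41 ± 0.12 that did not pass (adjusted p = 0.0722). Its other set read 8.04, 7.80 and 7.95 against 8.79, 8.67 and 8.83 and was higher by 0.83 ± 0.10 (1.78-fold, adjusted p = 0.00324). That set's identifier ends in _s_at, which marks probes shared between transcripts. Cx3cl1 differed by 0.34 ± 0.16 and by the same 0.34 ± 0.12 on its second set (adjusted p = 0.211 and 0.101). Of its 4 sets 3 had a positive and 1 a negative difference, the dimmest ones giving 0.08 ± 0.19 and −0.11 ± 0.14. Ccl20, the ligand of Ccr6, differed by 0.18 ± 0.16.

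Of 18 members read by several probe sets, 6 had sets of both signs, all of them without a call. Calls on a dimmer set alone concerned 3 genes, Cxcl1 and Cxcl16 (higher) and Ccl9 (lower). Over the 65 probe sets of the members 4 were higher and 8 lower, where 5.74% and 6.57% of all probe sets were (12.3% in either direction).

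**Figure D4:**
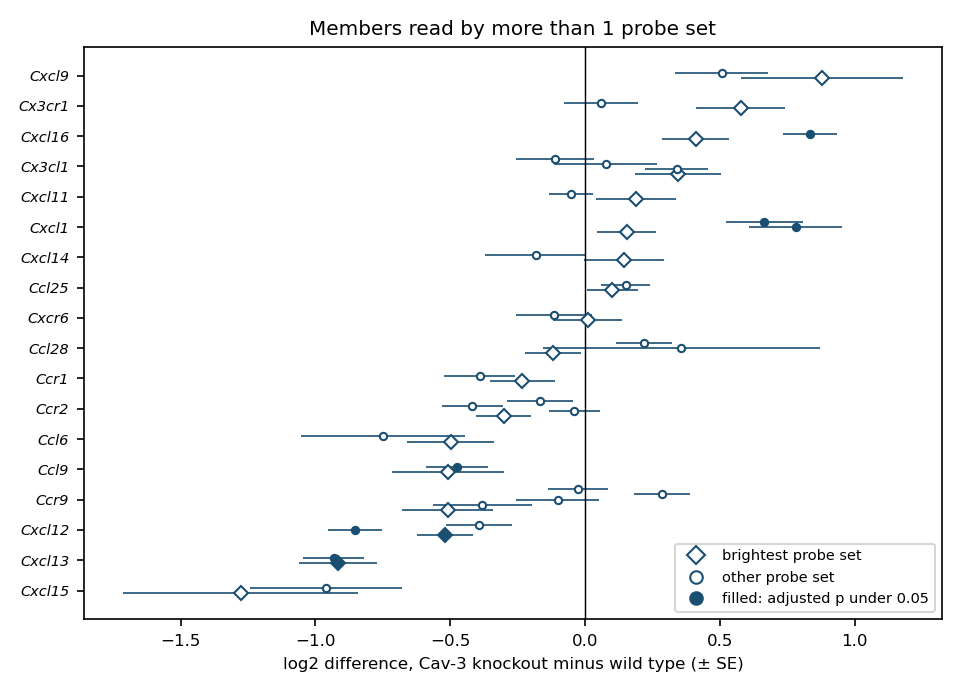
Log2 difference (x axis, bars ± SE) on each probe set of the 18 members with more than 1, diamonds marking the brightest set and filled symbols the adjusted threshold. Cxcl13 and Cxcl12 have filled symbols on the same side, and for Cxcl1 both filled circles lie to the right of the open diamond.

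No receptor among the 10 passed the limma threshold in either direction, where 16.2% of all genes did; 2 were higher and 4 lower at an unadjusted p under 0.05, and the median was −0.20. Cxcr4, the receptor for Cxcl12 on leukocytes, endothelium and some epithelia, read 7.24, 7.11 and 6.82 in WT and 7.95, 7.32 and 7.75 in KO. The groups did not overlap, with a difference of 0.62 ± 0.18 (1.54-fold, adjusted p = 0.0609), opposite in sign to that of Cxcl12. Cx3cr1, the receptor for Cx3cl1 on monocytes and resident macrophages, read 6.31, 6.43 and 6.45 in WT and 7.07, 6.59 and 7.26 in KO (0.58 ± 0.17, adjusted p = 0.0604). Its dimmer probe set gave 0.06 ± 0.14. For both receptors KO 2 was the lowest knockout array. Without this array, picked because it stood apart, the differences were 0.80 (adjusted p = 0.0157) and 0.77 (adjusted p = 0.00661). Each receptor passed in only 1 of the 6 fits with an array left out, and the adjusted p reached 0.180 and 0.170.

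Ccr6, carried by B cells and type 17 T cells, read 7.97, 7.85 and 8.16 in WT and 7.51, 7.02 and 7.64 in KO, with no overlap (difference −0.60 ± 0.17, adjusted p = 0.0554). It passed in 5 of 8 other fits with all arrays (adjusted p of 0.0240 to 0.0495) and in 0 of the 6 with an array left out. Ccr9, the gut-homing receptor for Ccl25, read 6.0, 5.73 and 6.30 in WT and 5.27, 5.72 and 5.52 in KO, where the groups all but touched (−0.51 ± 0.17, adjusted p = 0.0927). Of its 5 probe sets 4 had a negative and 1 a positive difference. The monocyte receptors Ccr2 and Ccr1 differed by −0.30 ± 0.10 and −0.23 ± 0.12. Cxcr6, the receptor for Cxcl16, differed by 0.01 ± 0.13, and Ccrl2, which binds chemerin without signalling, by 0.19 ± 0.09.

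Receptors of the pathway outside the set were counted as a list of their own. Of 11 measured ones 6 were lower and 0 higher, where 8.51% and 7.65% of all genes were. At an unadjusted p under 0.05, 9 were lower and 0 higher. All 11 differences were negative, and the median was −0.38. Lower were Cxcr5, Ccr10, the receptor for Ccl28, Xcr1, found on cross-presenting dendritic cells, and the scavenging receptors Ackr4, Ackr2 and Ackr1. Ccr10 read 5.36 to 5.53 in WT and 5.07 to 5.14 in KO, and Xcr1 3.96 to 4.00 and 3.51 to 3.75. Both lay within the background range, as did Ackr4 in KO, so these calls are to be read with their level in mind. Ackr4, which removes Ccl19 and Ccl25, read 6.22, 6.18 and 6.20 in WT and 5.46, 5.62 and 5.30 in KO and fell by 0.74 ± 0.10 (adjusted p = 0.0055). Ackr2, which removes inflammatory CC chemokines, fell by 0.71 ± 0.16 (adjusted p = 0.0255).

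Other ligands held 1 lower gene of 7, the platelet chemokine Pf4, which fell by 0.35 ± 0.09 (adjusted p = 0.0497). Of 25 measured genes of signalling below the receptors 4 were lower and 0 higher (8 lower and 1 higher at an unadjusted p under 0.05). They were Rgs18, a regulator of G-protein signalling in blood cells (by 0.62 ± 0.10), Dock2, a Rac activator of leukocytes (by 0.44 ± 0.08), Pik3cg, a leukocyte lipid kinase (by 0.33 ± 0.08), and Grk6, a receptor kinase (by 0.40 ± 0.10). Rgs18 read 6.05 to 6.10 in WT and 5.35 to 5.62 in KO, within the background range. Together the 54 measured genes outside the set held 11 lower and 2 higher, where 8.51% and 7.65% of all genes were. The lower ones numbered 3, 5 and 3 without WT 1, 2 or 3, and 7, 6 and 3 without KO 1, 2 or 3. In those refits 5.33%, 5.23% and 4.45%, and 6.89%, 8.04% and 3.33% of all genes were lower.

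**Figure D5:**
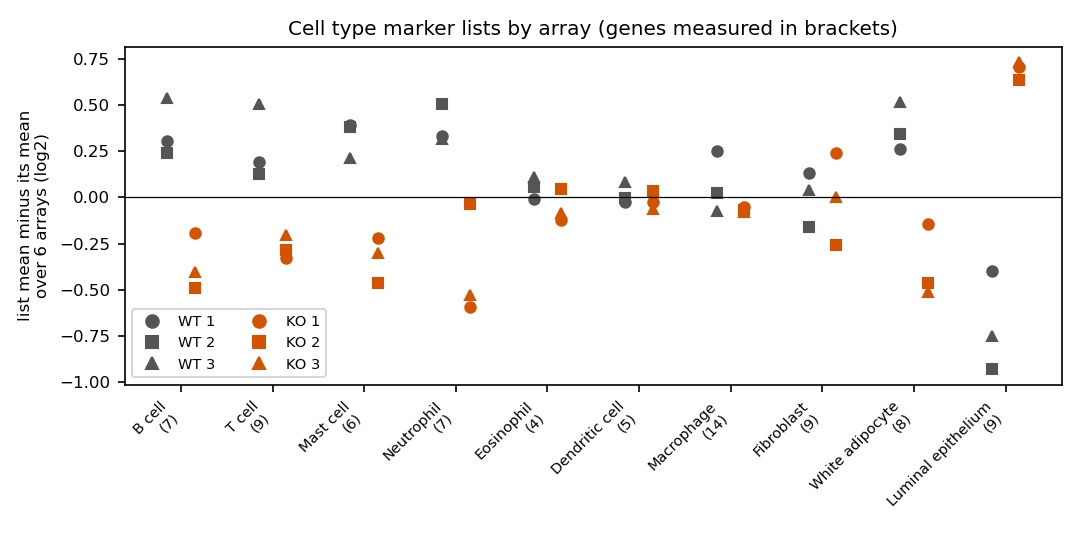
Mean of each cell type marker list on each array, minus the list's mean over 6 arrays (y axis, log2); grey symbols are wild type and orange knockout, with the number of genes measured in brackets. B cell, T cell, mast cell, neutrophil and white adipocyte lists lie lower in all 3 knockout arrays and the luminal list higher, while eosinophil, dendritic cell and fibroblast lists overlap between the genotypes. The eosinophil genes all read within the background range, and the neutrophil list means lay within it.

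Mast cell markers, beside the lymphocyte lists, were lower in 5 of 6 genes, with list means of 6.69 to 6.87 in WT and 6.02 to 6.26 in KO. Whether any of these cell type lists accounts for a member's difference was not tested.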

How the data were processed

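The deposited table holds log2 values, 1 per probe set and array, made by the authors with RMA, as the submitters' processing notes state (no version named). That method subtracts background and equalises array distributions, so a shift of most transcripts would be removed and folds of dim probe sets are compressed. Biotin-labelled cRNA from total RNA was hybridised, per the labels' protocols.

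Of 45101 probe sets 64 controls were left out and 45037 tested two-sided, genotype being the only term, using lmFit and eBayes of limma 3.58.1 (R 4.3.3). Names came from the platform annotation: 34945 sets had 1 symbol, 932 several and 9160 were not listed. Symbols were updated through Entrez identifiers with RefSeq (GRCm38.p6). The members, their classes, the other lists and the motif were chosen with earlier results of these data known. Named with all values were members past the threshold, those with separate groups and a difference of at least 0.5, and paired receptors or ligands. Other genes were the up to 4 with the smallest p in a list; Xcr1 and Ackr1 were added after their values were seen. The fit was tested on simulated data. Alternatives were renormalization, a dim filter, another variance prior, array weights, the replicate number as a block, other probe set choices and thresholds, and each array left out. Array numbers limit the precision. Figures were drawn with matplotlib 3.10.9.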

Additional observations from a re-analysis of the deposited data

How the results depend on the processing

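Over 37 members and their refits, 453 member results kept direction and side of the threshold, 17 lost the call, 23 gained it and 12 changed sign. Cxcl13 and Ccl24 kept the call in every refit. The sign changes concerned members without a call. With averaged probe sets Ccl28 was 0.15, Cxcl14 −0.019 and Cxcr6 −0.052. Leaving out 1 array gave ranges of −0.026 to 0.110 for Ccl2, −0.27 to 0.10 for Ccl3, −0.12 to 0.016 for Ccl7, −0.043 to 0.30 for Ccl8, −0.036 to 0.20 for Cxcl5, −0.016 to 0.27 for Cxcl14 and −0.088 to 0.11 for Cxcr6. The dim filter kept 24 members, removed Cxcl2 and called 2 others higher (Cx3cr1 and Cxcr4). The homeostatic median was −0.52 with that filter and −0.0194 with averaged probe sets. Higher members numbered 4 with array weights, 3 with averaged probe sets and 2 without sets ending in _x_at or _s_at. In these fits 9.51%, 7.55% and 7.45% of all genes were higher. At an adjusted p threshold of 0.1, 4 members were higher and 9 lower, and 4 and 18 of the other pathway genes; at 0.01 the counts were 0 and 2 in both. Of all genes 11.8% were higher and 12.7% lower at 0.1, and 2.45% and 2.31% at 0.01. Leaving out 1 array gave 0 to 3 higher and 2 to 7 lower members, 0 to 3 higher and 3 to 7 lower other genes, and medians of −0.19 to −0.055 (homeostatic), −0.047 to 0.053 (inflammatory) and −0.24 to −0.14 (receptors).

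Deviations of same-numbered arrays from their group means correlated at −0.05, 0.19 and −0.02, and those of differently numbered arrays at −0.19 to 0.26. With 3 arrays per group this cannot decide whether the numbers pair the samples. With the replicate number as a block 2 members were higher and 7 lower, where 7.81% and 7.96% of all genes were. The cause of these shifts was not tested.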
